A study of Rattus norvegicus with 12 samples.

Results

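Glycolysis, lactate transport and the response to low oxygen were followed through 38 genes chosen by symbol, of which 36 have a row among the 17268 genes of the count table. Pgk1 and Car9 were not analysed here. The 36 genes were described in 5 roles: 15 glycolytic enzymes, 6 genes of glucose uptake and lactate handling, 3 pyruvate dehydrogenase kinases, 6 hypoxia-inducible factor (HIF) genes with their oxygen sensors, and 6 other targets of HIF. RNA was sequenced from the cerebral cortex of 12 adult male Sprague Dawley rats, 1 library per rat and 3 rats per group. Sham rats had the neck surgery but no clot. Model rats had a blood clot injected into the middle cerebral artery and no treatment. The rt-PA rats had the clot and 10 mg/kg recombinant tissue plasminogen activator, a clot-dissolving enzyme, through the tail vein at 6 h. The rt-PA+Acu rats had the clot, acupuncture at the GV26 and PC6 points at 2 h and the same rt-PA at 6 h. Every group but Sham therefore carried the clot, no group had acupuncture without rt-PA, and the labels name cerebral cortex without saying how much of it was infarcted. The time of tissue collection and the side of the brain sequenced are not given in the sources used here.

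Glycolysis splits glucose into pyruvate. Hexokinases (Hk1, Hk2, Hk3) trap glucose in the cell, the phosphofructokinases (Pfkl, Pfkm, Pfkp) make the committed step, and Pkm makes pyruvate. Lactate dehydrogenase subunits A and B (Ldha, Ldhb) interconvert pyruvate and lactate, and monocarboxylate transporters (Slc16a1, Slc16a3, Slc16a7) carry lactate across membranes. Pyruvate dehydrogenase kinases (Pdk1, Pdk2, Pdk3) close the entry of pyruvate into mitochondrial oxidation. In brain, astrocytes are known to release lactate and neurons to take it up. HIF is a pair of an oxygen-labile subunit (Hif1a or Epas1) with Arnt. With oxygen present, prolyl hydroxylases (Egln1, Egln3) mark the labile subunit and Vhl sends it to degradation, so HIF activity is set largely at the protein, which these RNA counts do not measure.

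HIF binds the letters ACGTG or GCGTG, the core of the hypoxia response element. Promoter windows from RefSeq (build GRCr8, 250 bases before to 50 bases after each transcription start) were searched for these letters on both strands. At least 1 match lay in 13937 of 33469 windows (41.6%) and in 27 of 37 windows of the genes described here (73.0%), which had a higher median GC content (64.0% against 51.7%). Of the 36 genes, 33 had a window and Bnip3l, Ndrg1 and Slc2a3 had none in the table. The 250 bases upstream of 5 genes are shown 5′ to 3′ on the strand of the gene, with matches on either strand in capitals. Hif1a is shown as the only HIF factor, sensor or other HIF target past the fold threshold, and the other 4 genes were chosen after their values were seen, as a pair that rose after stroke (Ldha, Pfkfb3) and a pair that did not (P4ha2, Bnip3). A match is a description of the letters and not a binding site.
Hif1a, chr6:98359648-98359897 (plus strand): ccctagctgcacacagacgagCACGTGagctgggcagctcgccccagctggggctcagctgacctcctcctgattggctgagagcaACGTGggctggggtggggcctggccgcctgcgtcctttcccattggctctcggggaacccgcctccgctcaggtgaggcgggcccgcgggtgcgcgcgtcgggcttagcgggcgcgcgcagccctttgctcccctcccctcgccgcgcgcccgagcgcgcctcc
Ldha, chr1:106507842-106508091 (plus strand): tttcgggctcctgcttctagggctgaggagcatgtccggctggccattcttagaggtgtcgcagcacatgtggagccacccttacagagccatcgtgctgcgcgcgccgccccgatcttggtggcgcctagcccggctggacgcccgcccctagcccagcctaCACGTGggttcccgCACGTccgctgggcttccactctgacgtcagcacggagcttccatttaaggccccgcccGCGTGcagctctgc
Pfkfb3, chr17:71944683-71944932 (plus strand): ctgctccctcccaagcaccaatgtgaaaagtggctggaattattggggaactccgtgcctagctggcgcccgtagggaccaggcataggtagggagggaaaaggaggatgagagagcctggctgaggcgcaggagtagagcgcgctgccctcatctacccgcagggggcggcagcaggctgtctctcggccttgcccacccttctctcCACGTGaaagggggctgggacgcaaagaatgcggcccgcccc
P4ha2, chr10:38743644-38743893 (plus strand): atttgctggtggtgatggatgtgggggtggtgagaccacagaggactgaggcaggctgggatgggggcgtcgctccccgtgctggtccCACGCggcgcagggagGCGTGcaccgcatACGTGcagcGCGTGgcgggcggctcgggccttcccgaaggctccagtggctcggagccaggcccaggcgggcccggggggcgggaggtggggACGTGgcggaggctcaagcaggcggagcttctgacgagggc
Bnip3, chr1:203154963-203155212 (minus strand): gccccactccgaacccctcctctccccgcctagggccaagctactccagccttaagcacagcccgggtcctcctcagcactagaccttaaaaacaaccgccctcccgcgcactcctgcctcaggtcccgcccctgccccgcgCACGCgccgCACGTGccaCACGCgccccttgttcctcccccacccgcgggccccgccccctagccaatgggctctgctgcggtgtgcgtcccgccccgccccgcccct
Matches stood upstream of genes that rose and of genes that did not. The printed stretches held 3 matches for Hif1a, 4 for Ldha, 2 for Pfkfb3, 5 for P4ha2 and 4 for Bnip3, where CACGTG counts as an overlapping pair, once each in all but P4ha2. Among the genes that rose in Model, 13 of 17 with a window had a match, as did 6 of 6 that fell and 7 of 10 that did not pass the test.

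Total counts were 11678450 to 13616935 per library, and 3 counts in a library were worth 0.208 to 0.262 CPM, the unit of levels here, which are counts scaled to a common library total with edgeR's TMM factors. The 6 libraries of a comparison were tested with edgeR's quasi-likelihood method, and each adjusted p below comes from it, with Benjamini-Hochberg adjustment over all genes tested. A gene passed at an adjusted p under 0.05 and was a differentially expressed gene (DEG) if its log2 fold change was also beyond 1 in size. The ribosomal protein gene Rpl39 had 105 to 151 counts in Sham, 142 in Model replicate 3 and 488 to 990 in the other 8 libraries. In this gene Model replicate 3 stands apart from the other rats with a clot, and results that rest on it are given without it. Of the 36 genes described here, 2 (Arnt and Epas1) lay inside the Sham range in replicate 3 but outside it in both other Model libraries. The same held for 1 gene in Model replicate 1 and 0 in replicate 2.

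Cell type markers moved with the groups in this bulk tissue, where fewer cells of a type and less RNA per cell cannot be told apart. The summed level of 5 astrocyte markers ranged over 3397 to 4072 CPM for Sham, 1602 to 1870 for Model, 1368 to 1908 for rt-PA and 2664 to 3458 for rt-PA+Acu. The 4 cortical excitatory neuron markers summed to 1688 to 1916, 863 to 1036, 651 to 869 and 1236 to 2355 CPM in the same order, and 6 general neuron markers to 4774 to 5550, 4647 to 4908, 3745 to 4617 and 4240 to 6346 CPM. The 5 monocyte and macrophage markers ran the other way, at 62.5 to 70.6, 227 to 241, 268 to 636 and 85.7 to 169 CPM, and among them Ms4a7 had 0 counts in every Sham library. Microglial markers (4 genes) were at 311 to 392, 152 to 181, 165 to 191 and 223 to 281 CPM, and neutrophil markers (4 genes) at 7.19 to 11.6, 4.81 to 15.6, 13.9 to 78.7 and 3.66 to 5.24 CPM. Endothelial markers (4 of 5 in the table) were at 219 to 243, 176 to 342, 322 to 417 and 142 to 168 CPM. Sums for neighbouring tissue also differed, with striatal markers (3 genes) at 169 to 574, 59.7 to 141, 59.9 to 95.3 and 105 to 202 CPM. In rt-PA+Acu against rt-PA only Ppp1r1b among them rose (log2 fold change 1.27, edgeR adjusted p = 0.0182), while Drd1 (-0.34) and Adora2a (-0.42) did not pass. Choroid plexus markers (4 genes) were at 1.85 to 2.37, 9.66 to 48.1, 10.7 to 68.4 and 3.05 to 14.3 CPM. Of these, Kl and Aqp1 passed as higher in Model against Sham. Folr1 had 0 counts in every Model and rt-PA library, and neither Folr1 nor Ttr had enough counts to be tested. Oligodendrocyte markers (5 genes) were at 11522 to 17363, 1561 to 8202, 2575 to 11050 and 3017 to 20389 CPM. The part of cell composition in the results below was not tested.

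**Figure D1:**
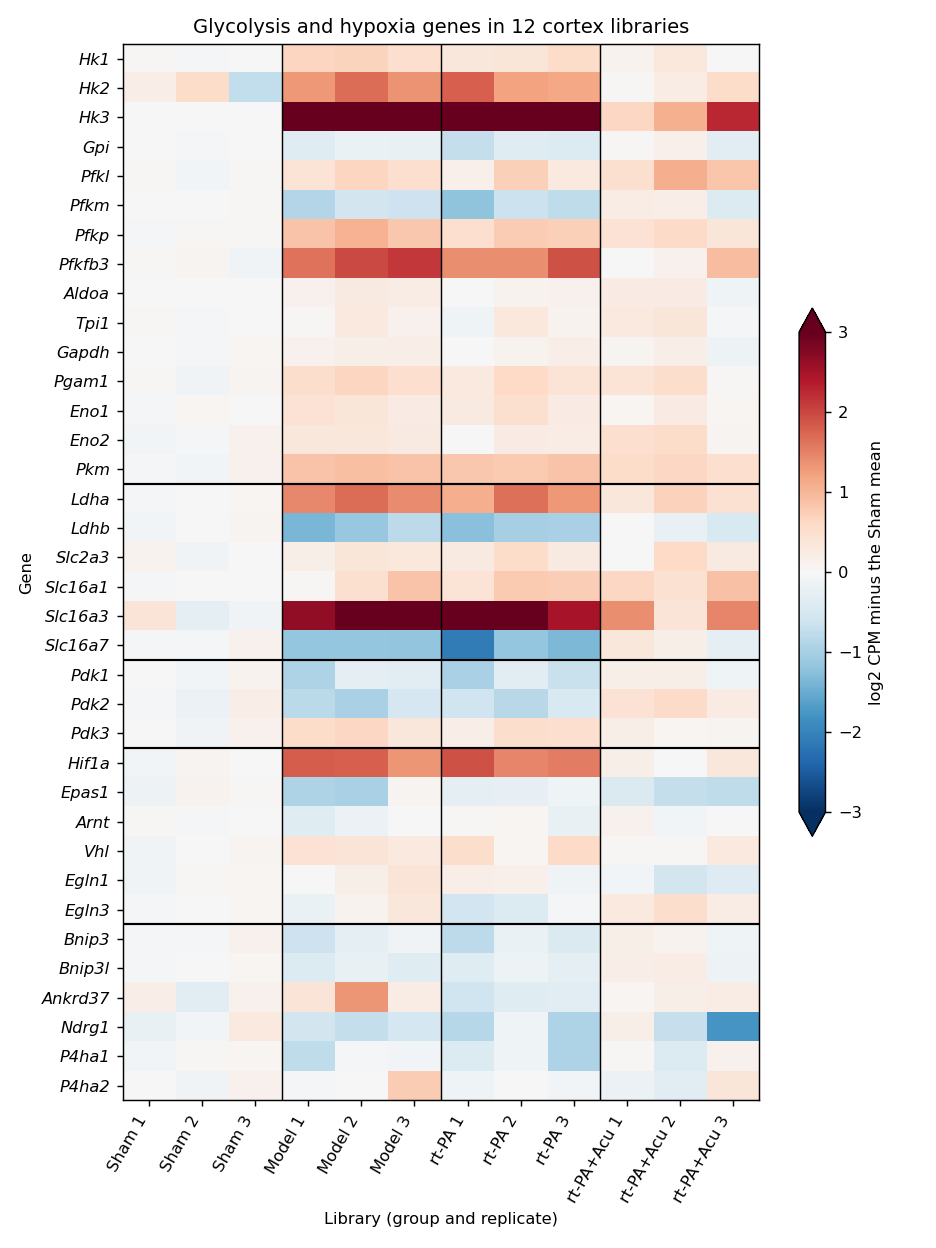
Level of the 36 genes (rows, grouped by role with black lines) in the 12 libraries (columns) as log2 CPM minus the Sham mean, with colours that saturate at 3 in either direction. Model and rt-PA columns look alike, with Hk2, Hk3, Pfkfb3, Ldha, Slc16a3 and Hif1a high and Ldhb and Slc16a7 low, and the rt-PA+Acu columns are mostly near Sham.

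Model was first compared with Sham to ask which of these genes differed after the stroke. Most glycolytic enzymes and all 6 glucose and lactate genes passed, as did 2 of the 6 genes grouped as other HIF targets. Of the 36 genes, 26 passed, against 54% of 12884 genes tested, with 18 higher (27.3% of all genes) and 8 lower (26.6%). DEGs numbered 8 of 36 against a background of 21.5%, so the share of DEGs was near that of all genes. The median log2 fold change of the 36 genes was 0.29 and that of all genes 0.01, and the medians of its absolute value were 0.51 and 0.48. The Model and Sham libraries did not overlap for 30 of 36 genes, against 63.6% of all genes.

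By role, 13 of 15 glycolytic enzymes passed, 11 higher and 2 lower. All 6 glucose and lactate genes passed (4 higher, 2 lower), as did the 3 pyruvate dehydrogenase kinases (1 higher, 2 lower). Of the 6 HIF factors and sensors 2 passed, both higher, and of the 6 other HIF targets 2 passed, both lower. The 6 DEGs that rose were Hk2, Hk3, Pfkfb3, Ldha, Slc16a3 and Hif1a (9.43% of all genes were DEGs in this direction), and the 2 that fell were Ldhb and Slc16a7 (12%).

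The lactate dehydrogenase subunits moved in opposite directions. Ldha, the subunit of the form that favours lactate production, was at 290, 302 and 312 CPM in Sham, 816, 959 and 810 in Model, 644, 954 and 741 in rt-PA, and 382, 490 and 413 in rt-PA+Acu. All Model and rt-PA libraries lay above all Sham libraries, with rt-PA+Acu between, and the log2 fold change in Model against Sham was 1.52 ± 0.09 (SE; edgeR adjusted p = 1.6e-05). Ldhb, the subunit of the form common in oxidative tissue, was at 395, 421 and 447 CPM in Sham, 164, 193 and 245 in Model, 176, 211 and 214 in rt-PA, and 420, 359 and 308 in rt-PA+Acu. Every Model and rt-PA library was below every Sham library, and the log2 fold change in Model was -1.07 ± 0.14 (SE; edgeR adjusted p = 0.000431). Within a library the log2 ratio of Ldha to Ldhb averaged -0.48 ± 0.04 (SD, n = 3) for Sham, 2.12 ± 0.34 for Model, 1.95 ± 0.20 for rt-PA and 0.24 ± 0.33 for rt-PA+Acu. That ratio depends on the scaling of a library only through a small prior count, and its difference of 2.60 between Model and Sham had an exact two-sided permutation p of 0.1, the smallest that 3 libraries against 3 allow (0.167 adjusted over the 35 tests of 7 ratios in 5 comparisons).

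Lactate transporters parted in the same manner. Slc16a3 (MCT4), the low-affinity exporter of glycolytic cells, was at 1.05, 0.612 and 0.698 CPM in Sham, 5.65, 14.2 and 16.7 in Model, 13.1, 14.7 and 5.02 in rt-PA, and 2.28, 1.05 and 2.39 in rt-PA+Acu. It had the largest log2 fold change of the genes with counts in Sham, 3.94 ± 0.47 (SE; edgeR adjusted p = 0.00028), from 8 to 13 counts per Sham library to 74 to 202 per Model library. Slc16a7 (MCT2), the high-affinity transporter typical of neurons, was at 21.7, 21.4 and 24.4 CPM in Sham, 9.92, 9.90 and 9.83 in Model, 5.13, 9.99 and 8.78 in rt-PA, and 28.4, 25.5 and 18.4 in rt-PA+Acu. The 3 Model libraries were nearly equal and all below Sham, with a log2 fold change of -1.18 ± 0.14 (SE; edgeR adjusted p = 0.00023). Slc16a1 (MCT1), a transporter of endothelium and glia, ranged from 75.4 to 78.1 CPM in Sham and 79.4 to 139 in Model (log2 fold change 0.50 ± 0.18, edgeR adjusted p = 0.04), and that call was lost without any 1 of the Sham libraries or Model replicate 2 or 3 (adjusted p up to 0.109). Slc2a3 (GLUT3), the glucose transporter of neurons, rose by a log2 fold change of 0.29 ± 0.09 (edgeR adjusted p = 0.0261), lost without Sham replicate 2 or 3 or Model replicate 2 (up to 0.109).

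Among the hexokinases all 3 rose. Hk2, the inducible form, was at 10.97, 14.1 and 5.76 CPM in Sham, 24.1, 31.3 and 25.0 in Model, 33.6, 22.3 and 21.8 in rt-PA, and 9.94, 11.3 and 14.3 in rt-PA+Acu, where only the last group overlapped Sham (Model log2 fold change 1.38 ± 0.29, edgeR adjusted p = 0.00427). Hk3, a form typical of white blood cells, had 0 counts in each Sham library, 84, 36 and 52 in Model, 181, 111 and 115 in rt-PA, and 1, 2 and 8 in rt-PA+Acu. Set against 3 counts per Sham library, Model was at least 18.8-fold and rt-PA at least 39.6-fold higher, bounds that cover counting error only, and Hk3 entered the tests only through the groups where it was high. Its order over the groups, rt-PA above Model above rt-PA+Acu, is that of the mean monocyte and macrophage marker sum (417, 234 and 114 CPM, with 65.4 in Sham). The mean sums of neutrophil (42.2, 10.2 and 4.71 CPM), endothelial (363, 236 and 154) and choroid plexus markers (32.0, 24.3 and 9.14) had the same order. In Sham they were 9.52, 229 and 2.08 CPM. The part of any of these cells in the Hk3 counts was not tested. Hk1, the constitutive brain form, rose from 491 to 517 CPM in Sham to 714 to 794 in Model (log2 fold change 0.62 ± 0.08, edgeR adjusted p = 0.000417).

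The middle of the pathway also split by isoform. Pfkfb3, whose product makes the activator of phosphofructokinase, was at 41.0, 42.2 and 36.9 CPM in Sham, 123, 158 and 175 in Model, 105, 106 and 150 in rt-PA, and 39.6, 43.8 and 76.3 in rt-PA+Acu. Model and rt-PA stood clear of Sham (Model log2 fold change 1.93 ± 0.14, edgeR adjusted p = 2.9e-05), and 1 rt-PA+Acu library was above the other 2. Pfkp, the platelet-type phosphofructokinase, rose by 0.91 ± 0.09 on the log2 scale (edgeR adjusted p = 9.6e-05), Pfkl, the liver type, rose by 0.53 ± 0.09 (adjusted p = 0.00174), and Pfkm, the muscle type, fell by 0.67 on the log2 scale (SE 0.10, adjusted p = 0.000697). The log2 ratio of Pfkp to Pfkm went from -0.04 ± 0.04 (SD, n = 3) in Sham to 1.55 ± 0.15 in Model, and no Model library overlapped Sham (exact permutation p = 0.1).

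Of the other enzymes Pkm rose the most, and Gapdh and Tpi1 did not pass. Gapdh, widely used as a reference gene, was at 2104, 2073 and 2205 CPM in Sham, 2339, 2399 and 2460 in Model, 2095, 2282 and 2422 in rt-PA, and 2242, 2444 and 1901 in rt-PA+Acu. The Model libraries were above all Sham libraries by a small step (log2 fold change 0.18 ± 0.08, edgeR adjusted p = 0.0746). Gapdh did pass with DESeq2 and with library size in place of TMM (log2 fold change and adjusted p range over all alternatives 0.15 to 0.25 and 0.0208 to 0.316). Pkm rose by 0.87 ± 0.09 (adjusted p = 0.000117), Pgam1, the mutase before enolase, by 0.56 ± 0.09 (adjusted p = 0.00089), the ubiquitous enolase Eno1 by 0.36 ± 0.08 (adjusted p = 0.00711) and the neuronal enolase Eno2 by 0.33 ± 0.09 (adjusted p = 0.0116), all on the log2 scale from edgeR. Aldoa, the aldolase of muscle and brain, rose by 0.22 ± 0.08 (edgeR adjusted p = 0.0417) and Gpi, which isomerises glucose 6-phosphate, fell by 0.26 (SE 0.08, adjusted p = 0.0227). The Aldoa call was lost without any 1 of the Sham libraries or Model replicate 2 (adjusted p up to 0.147), the Gpi call without Sham replicate 1 or 3 or Model replicate 1 (up to 0.0723) and the Eno2 call without Sham replicate 1 (0.0556). Tpi1, triose phosphate isomerase, had a log2 fold change of 0.16 ± 0.09 (adjusted p = 0.147). RefSeq names 78 pseudogenes after Gapdh, 30 each after Ldha and Eno1, 19 after Pkm, 13 after Pgam1, 9 after Aldoa and 8 after Bnip3, so reads shared with such copies leave the levels of these genes uncertain.

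Pyruvate dehydrogenase kinases split as well. Pdk2 was at 147, 131 and 172 CPM in Sham, 84.7, 76.2 and 106 in Model, 97.8, 84.1 and 108 in rt-PA, and 201, 221 and 176 in rt-PA+Acu. Model and rt-PA lay below every Sham library and rt-PA+Acu above (Model log2 fold change -0.75 ± 0.15, edgeR adjusted p = 0.00302). Pdk3 rose by 0.51 ± 0.12 (adjusted p = 0.00607) and Pdk1, a known HIF target, fell by 0.48 (SE 0.17, adjusted p = 0.0428), a call lost without any 1 of the Sham libraries or Model replicate 1 (adjusted p up to 0.127).

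Hif1a was the DEG among the factors. Hif1a was at 102, 113 and 107 CPM in Sham, 378, 369 and 269 in Model, 402, 294 and 309 in rt-PA, and 121, 109 and 135 in rt-PA+Acu. Model and rt-PA did not overlap Sham while rt-PA+Acu did, and the log2 fold change in Model was 1.67 ± 0.14 (SE; edgeR adjusted p = 5.1e-05), or 1.81 ± 0.08 without Model replicate 3 (adjusted p = 3.1e-06). Epas1 (HIF-2 alpha), which is strong in endothelium, was at 273, 326 and 311 CPM in Sham, 159, 154 and 322 in Model, 246, 257 and 279 in rt-PA, and 224, 184 and 177 in rt-PA+Acu. A single Model library, replicate 3, was inside the Sham range, and it also had the highest endothelial marker sum of the Model group (342 CPM, against 189 and 176). With replicate 3 the Epas1 log2 fold change was -0.51 ± 0.26 (edgeR adjusted p = 0.129), and without it -0.94 ± 0.10 (adjusted p = 0.00012). In rt-PA the endothelial marker sum (322 to 417 CPM) was above that of Sham (219 to 243 CPM), while Epas1 was not higher there. Vhl, the degradation adaptor, rose by 0.37 ± 0.09 (adjusted p = 0.00894). Arnt (-0.16 ± 0.11, adjusted p = 0.237), Egln1 (0.21 ± 0.12, 0.162) and Egln3, itself a known HIF target (0.10 ± 0.16, 0.6), did not pass. Without Model replicate 3, Egln3 was at -0.04 (edgeR adjusted p = 0.836).

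None of the other HIF targets was higher in Model by the test. Bnip3l, a mitophagy receptor, fell by 0.33 on the log2 scale (SE 0.08, edgeR adjusted p = 0.011), and Ndrg1, a stress gene also strong in myelinating glia, fell by 0.61 (SE 0.14, adjusted p = 0.00642). Both calls were lost in the fit over the other 11 libraries without Model replicate 3, and that of Ndrg1 also in 1 fit over all 12 libraries (adjusted p up to 0.0532 for Bnip3l and 0.232 for Ndrg1). In the fit of Model and Sham alone without Model replicate 3 both passed, Bnip3l at -0.31 (edgeR adjusted p = 0.0182) and Ndrg1 at -0.64 (0.00815). Bnip3, the partner mitophagy receptor, had a log2 fold change of -0.32 ± 0.13 (adjusted p = 0.0624), which passed without Model replicate 3 (-0.44, adjusted p = 0.0117). Ankrd37, a small ankyrin protein, was at 2.29 to 3.38 CPM in Sham and 3.89, 7.53 and 3.47 in Model, so 1 library held most of the difference (0.75 ± 0.36, adjusted p = 0.114), and it passed narrowly without Model replicate 3 (0.95, adjusted p = 0.0498). The collagen prolyl hydroxylases P4ha1 (-0.25 ± 0.17, adjusted p = 0.263) and P4ha2 (0.29 ± 0.22, adjusted p = 0.297) did not pass. Without Model replicate 3, P4ha2 was at -0.03 (edgeR adjusted p = 0.871).

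**Figure D2:**
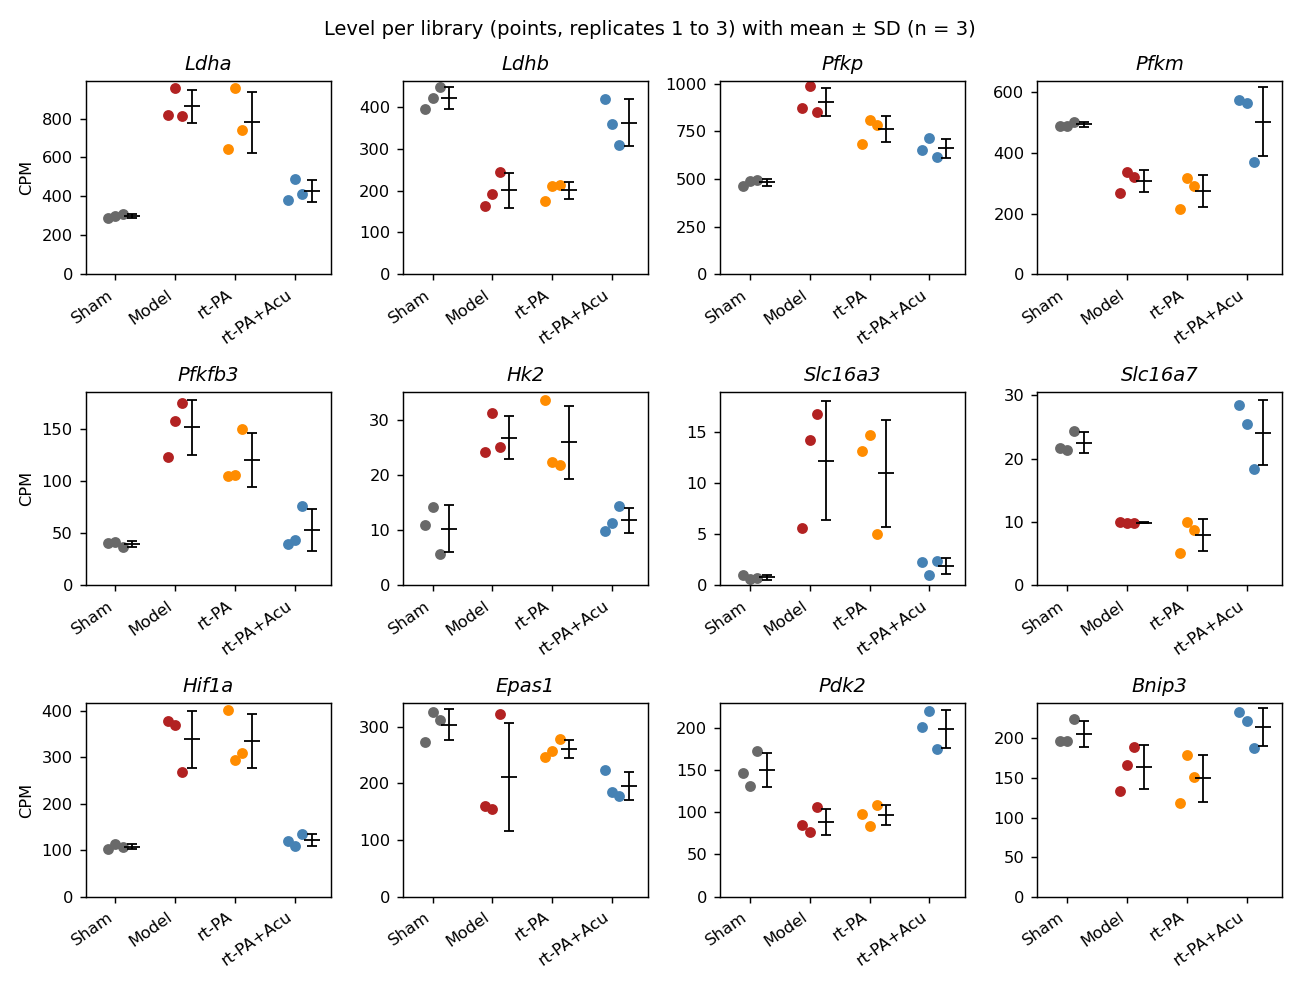
CPM of 12 genes in each library (points, replicates 1 to 3 from left to right within a group) with the group mean ± SD beside them (n = 3), each panel on its own axis from 0. Ldha, Pfkp, Pfkfb3, Hk2, Slc16a3 and Hif1a are high and Ldhb, Pfkm, Slc16a7 and Pdk2 low in Model and rt-PA, and 1 Model library of Epas1 lies inside the Sham range.

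Genes of the same pathways beyond the 36 were counted from 2 lists. Of 25 other glycolysis and pyruvate genes tested in Model against Sham, 12 passed (7 higher, 5 lower), against the 54% of all genes, and the 3 DEGs were Aldoc, the astrocyte aldolase (log2 fold change -1.95 ± 0.22), Pygb, the brain glycogen phosphorylase (-1.66 ± 0.11), and Pfkfb4, a relative of Pfkfb3 (1.18 ± 0.18), with edgeR adjusted p of 0.000209, 1.9e-05 and 0.000875. Of 21 other hypoxia genes, 16 passed (11 higher, 5 lower) and 10 were DEGs (7 higher, 3 lower), against 54% and 21.5% of all genes. Among those with the largest changes were Hmox1, which degrades heme (5.41 ± 0.15), Plin2, a lipid droplet coat protein (3.85 ± 0.16), Stc2, a secreted stress glycoprotein (3.76 ± 0.44), and Hif3a, a further HIF subunit that fell by 3.47 on the log2 scale (SE 0.65), with edgeR adjusted p of 3.3e-06, 4.3e-06, 0.000245 and 0.00249. Hypoxia genes beyond the 36 thus included large rises as well as falls.

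rt-PA was then compared with Sham, a comparison that shares the Sham libraries with the one above. In rt-PA 24 of 36 genes passed, against 54.7% of 13023 genes, with 15 higher (27.4% of all genes) and 9 lower (27.3%), and the 8 DEGs of Model were the 8 DEGs here (background 22.6%). Libraries did not overlap for 25 of 36 genes, against 64.1% of all genes. With library size in place of TMM scaling the split was 19 higher and 6 lower, and the median of all genes then lay 0.15 higher on the log2 scale. The log2 fold changes were 1.35 ± 0.14 for Ldha, -1.09 ± 0.10 for Ldhb, 3.76 ± 0.48 for Slc16a3, -1.51 ± 0.24 for Slc16a7, 1.57 ± 0.16 for Pfkfb3, 1.30 ± 0.32 for Hk2 and 1.62 ± 0.13 for Hif1a, with edgeR adjusted p from 4.8e-05 to 0.00937. Pfkp (0.64 ± 0.09), Pkm (0.80 ± 0.09), Hk1 (0.40 ± 0.09), Pgam1 (0.42 ± 0.10), Pdk3 (0.40 ± 0.12) and Slc16a1 (0.64 ± 0.11) also rose, and Pfkm (-0.87 ± 0.14), Gpi (-0.50 ± 0.11), Pdk1 (-0.65 ± 0.17) and Pdk2 (-0.65 ± 0.13) fell. Of the 6 other HIF targets all had a negative log2 fold change, and 3 passed, Bnip3 (-0.48 ± 0.15), Bnip3l (-0.28 ± 0.09) and Ndrg1 (-0.63 ± 0.22), with edgeR adjusted p of 0.0255, 0.0259 and 0.0447. Each of these 3 calls was lost without Sham replicate 2, Sham replicate 3 or rt-PA replicate 3, the calls of Bnip3 and Bnip3l also without Sham replicate 1, and those of Bnip3l and Ndrg1 also without rt-PA replicate 1 (adjusted p up to 0.151). The Pdk3 call was lost without Sham replicate 1 or 2 or rt-PA replicate 2 or 3 (up to 0.0842). Epas1 did not pass (-0.24 ± 0.10, adjusted p = 0.0676).

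Delayed rt-PA was compared with Model to ask what the drug changed in the injured cortex. None of the 36 genes passed in edgeR, against 0% of 12941 genes, and 9.92% of all genes had an unadjusted p under 0.05. DESeq2 passed 192 genes but 0 of the 36. The absolute log2 fold change of these genes had a median of 0.13, against 0.15 for all genes. Hif1a differed by -0.01 ± 0.17, Ldha by -0.14 ± 0.16, Ldhb by 0.00 ± 0.16 and Slc16a3 by -0.15 ± 0.48 on the log2 scale. The largest differences were in low genes, 1.07 ± 0.32 for Hk3 and -1.22 ± 0.36 for Ankrd37 (adjusted p = 0.374 for both). Groups did not overlap for 6 of 36 genes, against 15.9% of all genes. These standard errors leave room for differences of modest size, so equality of the groups was not shown.

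**Figure D3:**
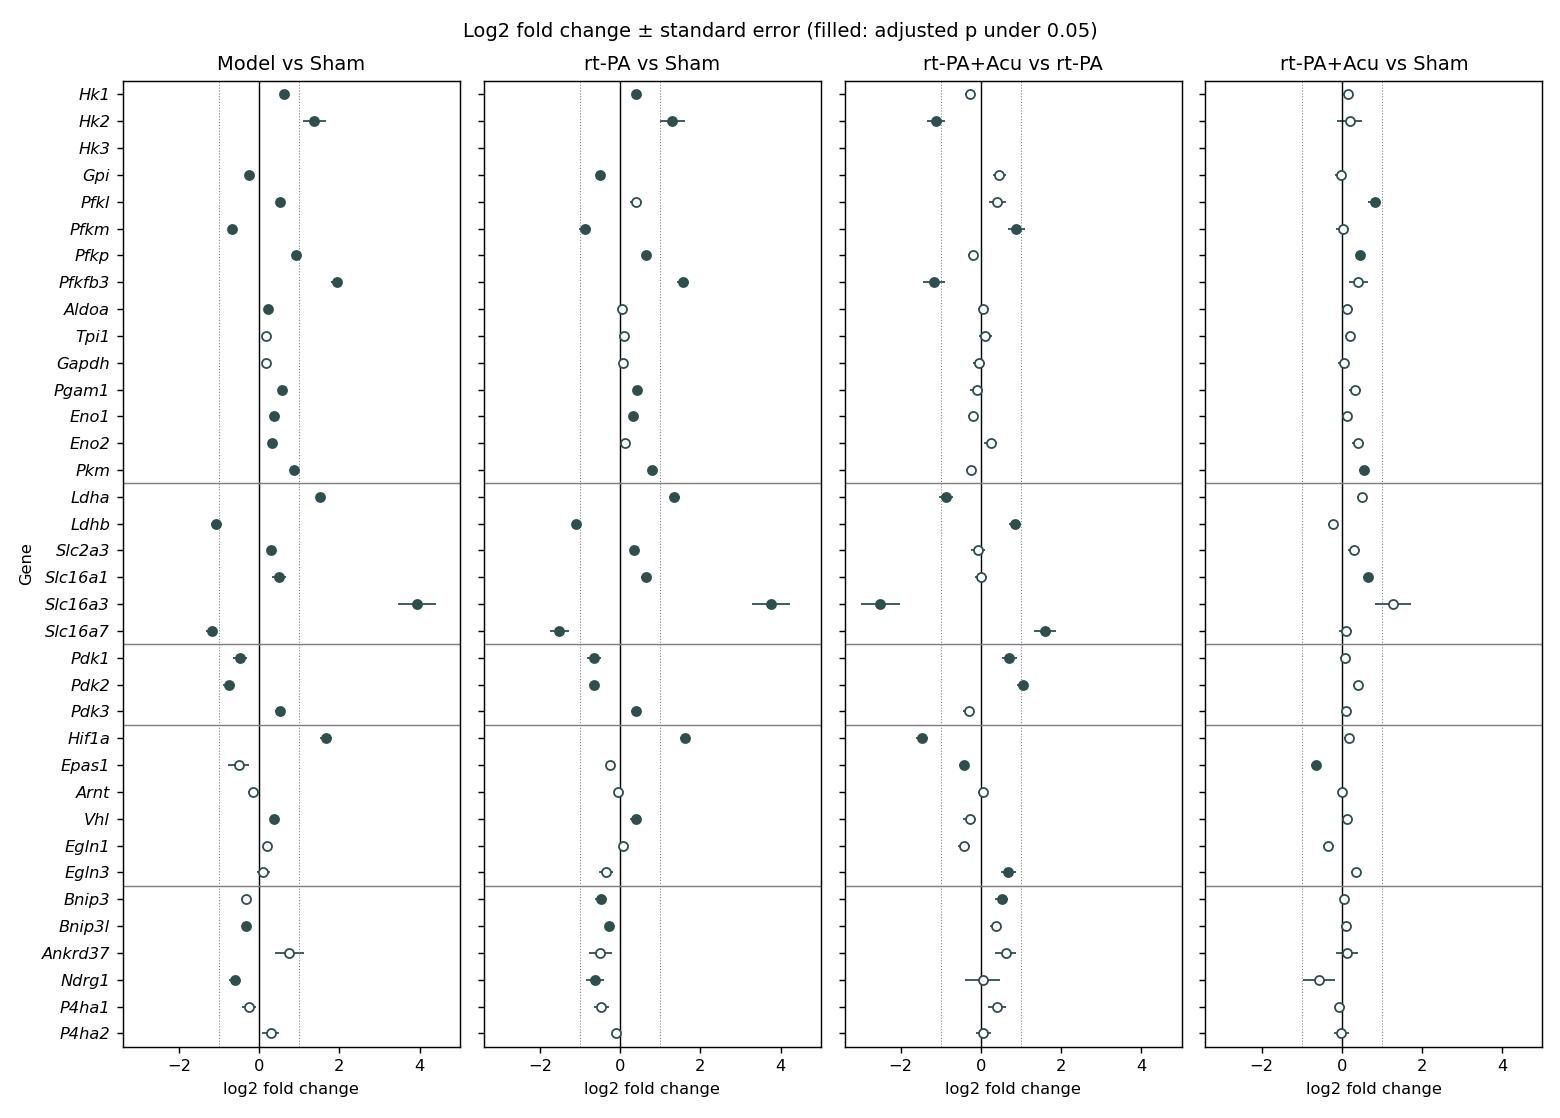
Log2 fold change (x axis) ± SE from edgeR of 35 genes (y axis, by role) in 4 comparisons, with filled points for an adjusted p under 0.05 and dotted lines at -1 and 1. Hk3 is left out because its Sham counts are 0, and in the third panel the 7 plotted DEGs of the first panel lie on the opposite side of 0.

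Acupuncture added to rt-PA was compared with rt-PA alone, a comparison that shares no library with Model against Sham. Ldha, Slc16a3, Hk2, Hk3 and Hif1a were lower and Ldhb and Slc16a7 higher, each opposite to its change in Model, whereas Hk1 and Slc16a1 did not pass, nor did most glycolytic enzymes. Of 36 genes 14 passed, against 34.8% of 12999 genes, with 7 higher (17% of all genes) and 7 lower (17.7%). DEGs numbered 7 (background 15.3%), with 2 higher (7.17%) and 5 lower (8.16%). With library size in place of TMM the split was 6 higher and 11 lower, and the median of all genes then lay at -0.10 on the log2 scale. The groups did not overlap for 20 of 36 genes, against 51.1% of all genes. By role, 4 of 15 glycolytic enzymes passed (1 higher, 3 lower), 4 of 6 glucose and lactate genes (2 higher, 2 lower), 2 of 3 kinases (both higher), 3 of 6 HIF factors and sensors (1 higher, 2 lower) and 1 of 6 other HIF targets (higher).

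For the genes named next, brackets hold the log2 fold change ± SE and the edgeR adjusted p. Lower in rt-PA+Acu as DEGs were Hif1a (-1.46 ± 0.16, adjusted p = 0.00139), Slc16a3 (-2.50 ± 0.48, 0.00809), Pfkfb3 (-1.17 ± 0.27, 0.0152), Hk2 (-1.13 ± 0.23, 0.00978) and Hk3 (fitted value -4.98 ± 0.53, 0.00138). Hk3, at 0.0843 to 0.597 CPM in rt-PA+Acu, entered this test only through the rt-PA libraries, so its call is a description and its size is uncertain. Ldha also fell, by 0.86 on the log2 scale (SE 0.17, adjusted p = 0.00943). For each of these 6 genes every rt-PA+Acu library was below every rt-PA library. Higher were Slc16a7 (1.60 ± 0.28, 0.00603) and Pdk2 (1.04 ± 0.14, 0.00241) as DEGs, and Ldhb (0.86 ± 0.15, 0.0056), Pfkm (0.88 ± 0.21, 0.0169), Pdk1 (0.71 ± 0.19, 0.0236), Egln3 (0.68 ± 0.18, 0.0235) and Bnip3 (0.52 ± 0.17, 0.0437) under the fold threshold. Pfkp (-0.20 ± 0.12, adjusted p = 0.23), Pkm (-0.26 ± 0.11, 0.117) and Hk1 (-0.27 ± 0.13, 0.13), which had risen in rt-PA, did not pass here. Pkm and Hk1 passed as lower with library size in place of TMM and with 1 fit over all 12 libraries, and Pkm also with DESeq2 (adjusted p over all alternatives 0.0189 to 0.274 for Pkm and 0.0358 to 0.346 for Hk1).

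Set against the change from Sham to rt-PA, Epas1 was the exception in direction among the genes that passed. Set against the change from Sham to Model, Epas1 (-0.51) and Egln3 (0.10) both kept their sign, but neither had passed there. Epas1 fell against rt-PA (-0.42 ± 0.12, edgeR adjusted p = 0.0356) although it had not been higher in rt-PA than in Sham. The endothelial markers fell in the same comparison in 4 of 4 genes tested, and their summed level was 142 to 168 CPM in rt-PA+Acu against 322 to 417 in rt-PA. The part of that fall in the Epas1 value was not tested. In rt-PA against Sham the endothelial sum was higher (322 to 417 against 219 to 243 CPM), with 3 of 4 genes tested passing, while Epas1 did not pass. Slc2a1 (GLUT1), the glucose transporter of brain endothelium and a gene named here after its values were seen, had a log2 fold change of -1.22 ± 0.11 (adjusted p = 0.00104).

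Calls in this comparison differed in how far 1 library held them. The 8 calls for Hk2, Hk3, Ldha, Ldhb, Slc16a3, Slc16a7, Pdk2 and Hif1a passed without each of the 6 libraries in turn. For Hk3 this adds little, since it entered each fit through the rt-PA libraries where it was high. Pfkfb3 was lost without rt-PA replicate 3 or rt-PA+Acu replicate 2 (adjusted p up to 0.0601), Pfkm without rt-PA replicate 1 or rt-PA+Acu replicate 1 or 2 (up to 0.0603), and Pdk1 and Bnip3 without rt-PA replicate 1 or 3 or rt-PA+Acu replicate 1 or 2 (up to 0.124). Egln3 was lost without rt-PA replicate 1 or 2 or rt-PA+Acu replicate 1 or 2 (up to 0.0875), and Epas1 without any 1 of the rt-PA libraries or rt-PA+Acu replicate 2 or 3 (up to 0.12). The number that passed was 9 without rt-PA replicate 1 and 8 without rt-PA+Acu replicate 2. The 24 genes that passed in rt-PA against Sham were put on a scale with the Sham mean at 0 and the rt-PA mean at 1. Of the 3 rt-PA+Acu rats, replicate 3 was highest on this scale for 16 genes, replicate 2 for 7 and replicate 1 for 1. Highest is not always nearest to the rt-PA mean, since some positions lay beyond it, such as Ndrg1 in replicate 3 (2.80). Median positions over the 24 genes were 0.412, 0.156 and 0.0665 for replicates 3, 2 and 1. Without replicate 3, 15 genes passed and 8 were DEGs.

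Set beside the stroke comparison, 27 of 36 genes (75%) had opposite signs in Model against Sham and in rt-PA+Acu against rt-PA, as had 10411 of 12753 genes (81.6%). Among those that passed in both, 11 of 11 of the genes described here and 3715 of 3729 of all genes had opposite signs. The opposite direction is thus no property of the glycolytic and hypoxia genes. In the lists of other pathway genes, 12 of 26 glycolysis and pyruvate genes passed (7 higher, 5 lower) and 11 of 20 hypoxia genes (5 higher, 6 lower), against 34.8% of all genes. Aldoc rose (1.17 ± 0.26), as did Pygb (0.86 ± 0.17), and Pfkfb4 (-1.43 ± 0.19), Hmox1 (-5.16 ± 0.68) and Plin2 (-2.98 ± 0.48) fell, with edgeR adjusted p from 0.00245 to 0.014. Stc2 did not pass (-0.48 ± 0.75, adjusted p = 0.643) and Hif3a was not tested at its level of under 1 CPM in either group.

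**Figure D4:**
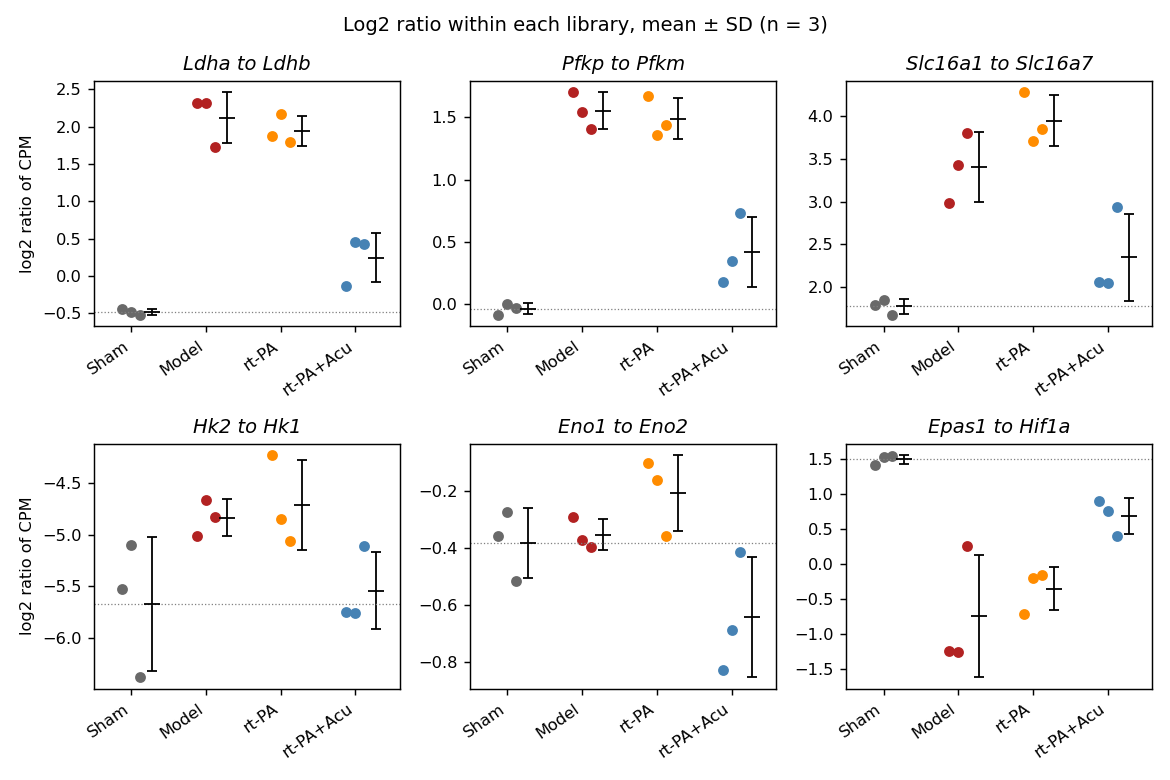
Log2 ratio of 2 genes within each library (points, replicates 1 to 3 from left to right) with the group mean ± SD (n = 3) and a dotted line at the Sham mean. The ratios of Ldha to Ldhb, Pfkp to Pfkm and Slc16a1 to Slc16a7 are above Sham in every Model and rt-PA library and closer to Sham in rt-PA+Acu, and the ratio of Epas1 to Hif1a is below Sham in every other library.

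Ratios within a library were also compared over the other groups. In rt-PA+Acu, Ldha to Ldhb fell by 1.70 log2 units against rt-PA and remained 0.73 above Sham. Pfkp to Pfkm fell by 1.07 against rt-PA and remained 0.45 above Sham, and Slc16a1 to Slc16a7 fell by 1.60 and remained 0.57 above. In these 3 ratios the libraries of rt-PA+Acu overlapped neither rt-PA nor Sham, each at the smallest exact permutation p of 0.1. Epas1 to Hif1a averaged 1.50 ± 0.06 (SD, n = 3) for Sham, -0.75 ± 0.87 for Model, -0.35 ± 0.31 for rt-PA and 0.68 ± 0.26 for rt-PA+Acu, where Model replicate 3, at 0.26, was above the other 2, at -1.25 and -1.26. Hk2 to Hk1 rose by 0.84 in Model without overlap and differed by 0.13 between rt-PA+Acu and Sham, with overlap. Eno1 to Eno2 differed by 0.03 between Model and Sham (exact permutation p = 0.9) and fell by 0.44 in rt-PA+Acu against rt-PA, without overlap. P4ha2 to P4ha1 differed from Sham by 0.52 in Model (exact permutation p = 0.3), by 0.42 in rt-PA, without overlap (p = 0.1), and by 0.04 in rt-PA+Acu (p = 0.8).

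Last, rt-PA+Acu was compared with Sham to find what still differed. Of 35 genes tested 5 passed, against 5.1% of 12775 genes, with 4 higher (1.7% of all genes) and 1 lower (3.4%), and none was a DEG (background 2.06%). The libraries did not overlap for 9 of 35 genes, against 30.8% of all genes. Higher were Pfkl (log2 fold change 0.82 ± 0.16, edgeR adjusted p = 0.0283), Slc16a1 (0.66 ± 0.12, 0.026), Pkm (0.55 ± 0.12, 0.0382) and Pfkp (0.45 ± 0.11, 0.0499), and Epas1 was lower (-0.64 ± 0.12, 0.0283). None of the 4 higher genes had passed in edgeR between rt-PA+Acu and rt-PA, apart from the alternatives given above for Pkm and a replicate block for Pfkl (adjusted p = 0.0481). Hif1a (0.18 ± 0.11, adjusted p = 0.372), Hk2 (0.20 ± 0.31, 0.745), Ldhb (-0.22 ± 0.13, 0.344) and Slc16a7 (0.09 ± 0.17, 0.777) did not pass, Ldha was just outside (0.51 ± 0.12, 0.0521), and Slc16a3, at 12 to 32 counts per library, was at 1.27 ± 0.46 (0.146). The 5 calls rest on few libraries, since 0 passed without any 1 of the Sham libraries, 1 without rt-PA+Acu replicate 2 and 8 without rt-PA+Acu replicate 3. Of all genes, 23.2% had an unadjusted p under 0.05 in this comparison.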

How the data were processed

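Cerebral cortex RNA of 12 rats was sequenced as paired-end reads of 150 bases from poly(A) RNA (RNA integrity number above 7), 1 library per rat, with libraries grouped by their labels. The authors aligned reads with STAR 2.7.10 and quantified genes with Salmon 1.9.0. The submitters' processing notes also name featureCounts 2.0.1 and the build mRatBN7.2. The annotation release and the use of the molecular identifiers in the adapters are not given in the sources used here. As deposited, values are whole raw counts per gene symbol, neither normalized nor pooled, and 15895 of 17268 genes had a count.

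The analysis used R 4.3.3 and edgeR 4.0.16 (TMM, filterByExpr, quasi-likelihood test, Benjamini-Hochberg adjustment) on the 6 libraries of each pair of groups. TMM factors were 0.948 to 1.08. Alternatives were DESeq2 1.42.0, scaling by RLE size factors or by library size, a filter of 1 count or of 10 in each library, a joint fit of the 12 libraries, a block on the replicate number, and the omission of each library, with fits without Model replicate 3 or rt-PA+Acu replicate 3 over the other 11 libraries added after seeing the data. The fits were tested on simulated data. Ratios were taken on log2 CPM at a prior count of 2 (0.5 as the alternative) and an exact permutation test of group means. Python 3.11.15 and matplotlib 3.10.9 drew the figures.

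The genes and lists were chosen with earlier results of these data known. Values in every library are given for genes that were DEGs in at least 1 of the 5 comparisons and for Gapdh, Ldha, Ldhb, Hif1a and Epas1. Other pathway genes are named when among the 5 largest log2 fold changes in Model against Sham of the DEGs of their list, at a mean of at least 1 CPM over the libraries compared, except for 1 that is not reported here. Pgk1, Car9, Car12, Hilpda, Hkdc1, Pfkfb1, 1 endothelial marker and 3 red blood cell markers were not analysed here. Promoter sequences are from RefSeq on GRCr8, not the authors' build, so no gene positions on the authors' build are given. Counts of reads are not counts of molecules, so floors and bounds cover counting error only.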

Additional observations from a re-analysis of the deposited data

How the results depend on the processing

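No log2 fold change of a gene that passed changed its sign under any alternative, and 2214 of the fold change values stayed on their side of the threshold, with 129 losing and 50 gaining the call. Log2 fold changes of genes that had not passed changed sign 83 times. Of 245 ratio values 11 changed sign, all 11 in differences whose groups overlapped. The number of genes that passed in rt-PA+Acu against Sham was 5, and it was 3 with 1 fit over all 12 libraries and 0 with the replicate number as a block. Leaving out 1 library gave 21 to 28 of 36 in Model against Sham, 18 to 23 in rt-PA against Sham, 0 in rt-PA against Model, 8 to 15 in rt-PA+Acu against rt-PA and 0 to 8 in rt-PA+Acu against Sham, and the DEGs were 7 to 8, 7 to 8, 0, 5 to 8 and 0. All leave-one-out fits passed 20 of the 26 genes in Model against Sham, 17 of 24 in rt-PA against Sham, 8 of 14 in rt-PA+Acu against rt-PA and 0 of 5 in rt-PA+Acu against Sham. The added fits over the other 11 libraries passed 21 genes in Model against Sham without Model replicate 3 and 16 in rt-PA+Acu against rt-PA without rt-PA+Acu replicate 3. The cause of the lost calls was not tested. Replicate numbers are shared between groups, and the labels do not say whether they pair the rats. Deviations of same-numbered libraries correlated at -0.12 to 0.14, and 2 of 12 libraries matched best with their own number. With 3 libraries a group these values cannot exclude a weak pairing. With the replicate block 27, 24, 0, 13 and 0 genes passed in the 5 comparisons. With 3 rats a group, the size of changes in genes with few counts, such as Hk3, Slc16a3 and Ankrd37, is uncertain.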
